A study of Mus musculus with 3 samples.

Results

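Natural killer (NK) cells of mouse subcutaneous fat were picked out of single-cell RNA-seq libraries by their transcripts. A cell barcode counted as an NK cell when at least 2 of Ncr1, Klrb1c, Klre1, Klrk1 and Gzma had a unique molecular identifier (UMI, 1 tagged transcript molecule), one of them Ncr1, Klrb1c or Klre1, and when Cd3d, Cd3e, Cd3g and Cd79a had none. The cells were thus selected on the measured UMIs of these 9 genes, whose levels are given below only as a description. Barcodes entered with 500 or more detected genes and no more than 15% mitochondrial UMIs. The rule took 117 of 8186 such barcodes. Of these, 43 came from the Pdgfra-Cre library, 47 from the Pdgfrb-Cre library and 27 from the wild-type library.

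The tissue was the stromal and vascular fraction of inguinal white adipose tissue. The 3 genotypes were Pdgfra-Cre; Tert fl/fl, Pdgfrb-Cre; Tert fl/fl and Tert wild type (TERT +/+), with 1 library each, so a difference between genotypes cannot be told apart from a difference between libraries or mice. In the Cre mice, Tert, the catalytic subunit of telomerase, is deleted by design where the Pdgfra or Pdgfrb promoter is active, which is mainly in mesenchymal cells and not in lymphocytes. PBS stands in the wild-type title without explanation, and no label gives age, sex, strain or the number of mice behind a library. The series asked how the tissue changes when telomerase is lost from mesenchymal progenitors.

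NK cells are innate lymphocytes that kill infected, transformed or stressed cells by releasing perforin and granzymes, and that secrete interferon gamma and chemokines. They weigh signals from activating receptors, such as NKp46 (Ncr1) and NKG2D (Klrk1), against inhibitory lectin-like receptors that read MHC class I, in mice chiefly the Ly49 family (Klra genes). Mouse NK cells mature from a CD27-bearing stage that carries the interleukin 7 receptor and Tcf7 to a CD11b-bearing stage with Klrg1 and more granzyme B and perforin. In fat, NK cells lie among resident type 1 innate lymphoid cells (ILC1), which share NKp46, NK1.1 (Klrb1c) and NKG2D, so the rule can take both.

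Depth was close between the NK cells of the libraries, with medians of 4559 UMIs in Pdgfra-Cre, 4876 in Pdgfrb-Cre and 4643 in wild type. Summed over cells they held 242653 UMIs in Pdgfra-Cre, 289908 in Pdgfrb-Cre and 144872 in wild type. Levels are given as CPM, a gene's UMIs per 1000000 UMIs of these sums. The libraries as a whole were less alike, with medians of 7554 UMIs in kept Pdgfra-Cre barcodes, 5771 in Pdgfrb-Cre and 3305 in wild type. No NK cell of any library had a Tert UMI, which allows a level of up to 12.4 CPM in Pdgfra-Cre, 10.3 CPM in Pdgfrb-Cre and 20.7 CPM in wild-type NK cells (3 UMIs), so the deletion could not be checked in these cells. Libraries shared 1 or 2 kept barcode sequences per pair, none of them an NK cell. Intervals are 95% intervals throughout and reflect counting error alone.

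The cells were checked against NK genes that the rule did not use. Tyrobp, the DAP12 adaptor of activating receptors, was detected in 86% of Pdgfra-Cre, 91.5% of Pdgfrb-Cre and 92.6% of wild-type NK cells, and Fcer1g, the adaptor of NKp46 and CD16, in 93% of Pdgfra-Cre, 97.9% of Pdgfrb-Cre and 96.3% of wild-type NK cells. In barcodes with neither CD3 nor NK marker UMIs, which include B cells and myeloid cells, the last of which use both adaptors, Tyrobp was detected in 11.3% of Pdgfra-Cre, 13.8% of Pdgfrb-Cre and 13.1% of wild-type barcodes, and Fcer1g in 9.89% of Pdgfra-Cre, 9.47% of Pdgfrb-Cre and 8.73% of wild-type barcodes. Median depths of that group were 8769 UMIs in Pdgfra-Cre, 4346 in Pdgfrb-Cre and 2705 in wild type. Klrd1 (CD94), the partner chain of the NKG2 receptors, was detected in 83.7% of Pdgfra-Cre, 66% of Pdgfrb-Cre and 88.9% of wild-type NK cells, against 0.48% of Pdgfra-Cre, 1.14% of Pdgfrb-Cre and 0.804% of wild-type barcodes of that comparison group. Nkg7, a membrane protein of cytotoxic granules, was detected in 93% of Pdgfra-Cre, 93.6% of Pdgfrb-Cre and 92.6% of wild-type NK cells, against 0.384% of Pdgfra-Cre, 0.892% of Pdgfrb-Cre and 1.49% of wild-type barcodes of the same group. All 4 genes were thus seen in most NK cells of every library and, apart from the shared adaptors, in under 2% of that comparison group. That group was chosen to lack NK marker and CD3 UMIs, so it leaves CD3 T cells out. After thinning to equal UMIs, Nkg7 was detected in 53.7% of Pdgfra-Cre, 20.6% of Pdgfrb-Cre and 16.5% of wild-type CD3 T cells. In the same order Klrd1 was detected in 14.3%, 10.6% and 5.63%, Tyrobp in at most 2.72% and Fcer1g in at most 1.63%. Thinned NK cells had Nkg7 in 87.8%, 78.3% and 84% and Klrd1 in 48.8%, 32.6% and 64%. Nkg7 and Klrd1 were thus not confined to NK cells.

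The rule needed 2 markers, and the cells at that edge were fewer in one library than in the others. Exactly 2 markers were found in 4 Pdgfra-Cre, 14 Pdgfrb-Cre and 11 wild-type NK cells. Fcer1g was detected in 75% of these in Pdgfra-Cre, 92.9% in Pdgfrb-Cre and 100% in wild type. Just outside, 5 Pdgfra-Cre, 6 Pdgfrb-Cre and 14 wild-type barcodes had only 1 of Ncr1, Klrb1c and Klre1 with no CD3 or Cd79a UMI, and Fcer1g was detected in 0% of those in Pdgfra-Cre, 66.7% in Pdgfrb-Cre and 71.4% in wild type. Outside the filter on genes and mitochondrial UMIs, 2 Pdgfra-Cre, 2 Pdgfrb-Cre and 9 wild-type barcodes met the marker rule.

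Genes of the related innate lymphoid types were uneven. Among ILC2 and ILC3 genes, Il1rl1 (the interleukin 33 receptor), Il5, Il17a and Il22 had no UMI in any NK cell, and Areg had 1 UMI, in Pdgfra-Cre. Of the 12 genes of that list 7 had no UMI in Pdgfra-Cre, 10 in Pdgfrb-Cre and 8 in wild-type NK cells. Other genes of it were detected, and the list summed to 152 CPM in Pdgfra-Cre, 272.5 CPM in Pdgfrb-Cre and 297 CPM in wild-type NK cells. Of the ILC1 genes, Itga1 (CD49a) was at 78.3 CPM in Pdgfra-Cre, 44.8 CPM in Pdgfrb-Cre and 6.9 CPM in wild-type NK cells, whereas Cxcr6, a chemokine receptor of tissue-resident lymphocytes, was at 33 CPM in Pdgfra-Cre, 6.9 CPM in Pdgfrb-Cre and 131 CPM in wild-type NK cells. By summed level Itga1 was thus highest in a Cre library and Cxcr6 in wild type. With cells thinned to the same number of UMIs, Cxcr6 was detected in 7.32% of Pdgfra-Cre, 2.17% of Pdgfrb-Cre and 4% of wild-type NK cells. The high wild-type level of Cxcr6 was thus not matched by its share of cells. The ILC1-associated Zfp683 (Hobit) had 1 UMI in Pdgfra-Cre, 1 in Pdgfrb-Cre and none in wild-type NK cells.

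T cell receptor genes were not part of the rule, and the rearranged alpha chain constant gene Trac was low. Trac had 16.5 CPM in Pdgfra-Cre, 51.7 CPM in Pdgfrb-Cre and 6.9 CPM in wild-type NK cells, against 348 CPM in Pdgfra-Cre, 400.3 CPM in Pdgfrb-Cre and 445 CPM in wild-type CD3 T cells. The beta chain constant gene Trbc1, of which NK cells are known to carry germline transcripts, was much higher, with 305 CPM in Pdgfra-Cre, 279 CPM in Pdgfrb-Cre and 1229 CPM in wild-type NK cells. It was detected in 51.2% of Pdgfra-Cre, 63.8% of Pdgfrb-Cre and 96.3% of wild-type NK cells, against 0.672% of Pdgfra-Cre, 2.53% of Pdgfrb-Cre and 4.82% of wild-type barcodes without NK or CD3 UMIs. In CD3 T cells Trbc1 had 387 CPM in Pdgfra-Cre, 570 CPM in Pdgfrb-Cre and 683 CPM in wild type. It was detected there in 50.6% of Pdgfra-Cre, 59.4% of Pdgfrb-Cre and 49.9% of wild-type cells. NK cells thus lay above T cells in wild type, and in the Cre libraries below them in level at similar shares. Whether the Trbc1 UMIs of NK cells were germline transcripts was not tested. Requiring no UMI of Trac, Trbc1 or Trbc2 would leave 9 Pdgfra-Cre, 10 Pdgfrb-Cre and 0 wild-type NK cells. Trdc, the delta chain constant gene, had 28.8 CPM in Pdgfra-Cre, 17.2 CPM in Pdgfrb-Cre and 69 CPM in wild-type NK cells.

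Markers of other tissue cells were low in most NK cells, and in the Cre libraries a few cells carried most UMIs of Dcn, Cd74 and H2-Aa. Among 4 Pdgfra-Cre, 6 Pdgfrb-Cre and 3 wild-type NK cells at least 3 markers of stromal, endothelial, myeloid or B cells had a UMI, and these cells were deeper, with median UMIs of 15376 against 4265 for the remaining NK cells in Pdgfra-Cre, 14212 against 4566 in Pdgfrb-Cre and 5881 against 4513 in wild type. In Pdgfra-Cre 1 cell held 97.3% of the UMIs of Dcn, the matrix proteoglycan decorin, and in Pdgfrb-Cre 1 cell held 98%, while wild-type NK cells had none. Summed over 7 stromal markers, NK cells had 2312 CPM in Pdgfra-Cre, 2056 CPM in Pdgfrb-Cre and 69.0 CPM in wild type. Over 8 B cell markers the sum was 4158 CPM in Pdgfra-Cre, 1790.2 CPM in Pdgfrb-Cre and 518 CPM in wild type, with Cd79b and Ighd at 0 in all libraries. Over 10 myeloid markers it was 206 CPM in Pdgfra-Cre, 452 CPM in Pdgfrb-Cre and 96.6 CPM in wild type, and over 6 endothelial markers 61.8 CPM in Pdgfra-Cre, 197 CPM in Pdgfrb-Cre and 104 CPM in wild type. Haemoglobin genes summed to 169 CPM in Pdgfra-Cre NK cells and had no UMI in the others, and 6 basophil and mast cell genes summed to at most 10.3 CPM. Without the cells with other markers Cd74, the class II invariant chain, was at 49.4 CPM in Pdgfra-Cre, 38.1 CPM in Pdgfrb-Cre and 223 CPM in wild-type NK cells. With them it was at 2621 CPM in Pdgfra-Cre, 942 CPM in Pdgfrb-Cre and 221 CPM in wild-type NK cells. The wild-type level did not rest on those cells, but 1 wild-type NK cell held 62.5% of its 32 UMIs. Many but not all results that these 13 cells alter are given with and without them, and no doublet caller was run.

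NK cells made up the largest share of barcodes in the Pdgfra-Cre library. They were 3.02% (Clopper-Pearson interval 2.19 to 4.04) of kept Pdgfra-Cre barcodes, 1.17% (0.858 to 1.55) of Pdgfrb-Cre barcodes and 0.990% (0.653 to 1.44) of wild-type barcodes. The Pdgfra-Cre interval lay above the other two, which overlapped. Barcodes that met the NK marker rule but also had a CD3 UMI numbered 43 in Pdgfra-Cre, 89 in Pdgfrb-Cre and 25 in wild type. CD3 T cells, with UMIs of at least 2 CD3 genes and none of Ncr1, Klrb1c, Klre1 or Cd79a, numbered 235 in Pdgfra-Cre, 1553 in Pdgfrb-Cre and 583 in wild type. Set against T cells and double-positive barcodes together, NK cells were 13.4% in Pdgfra-Cre, 2.78% in Pdgfrb-Cre and 4.25% in wild type, so the order of the 2 lower libraries turned with the denominator. These are shares of captured barcodes, counted after dead cells and red cells had been removed.

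**Figure D1:**
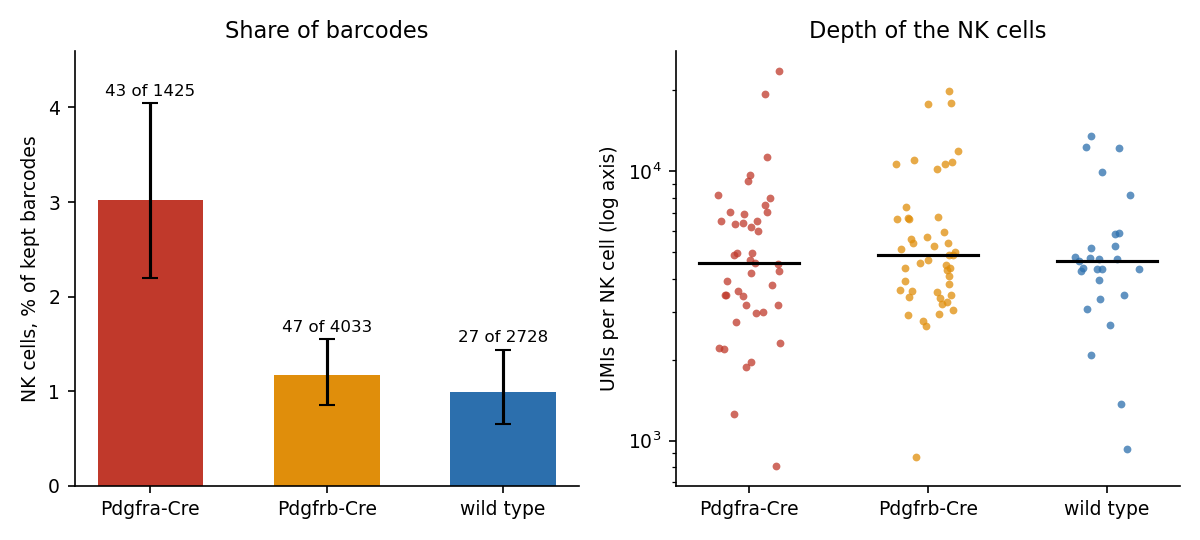
Left, NK cells as a percentage of kept barcodes in each library, with exact 95% intervals for counting error and the numbers of barcodes above the bars. Right, UMIs of each NK cell on a log axis, with the median as a line. The share was 3.02% in Pdgfra-Cre, 1.17% in Pdgfrb-Cre and 0.990% in wild type, while median depths lay between 4559 and 4876 UMIs.

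The most abundant transcripts besides mitochondrial and ribosomal protein genes were the nuclear RNA Malat1, Gm42418, the actin-binding thymosin Tmsb4x, Tpt1 and the chemokine Ccl5. Ccl5, which recruits T cells and monocytes, had 14922 CPM in Pdgfra-Cre, 9831 CPM in Pdgfrb-Cre and 4073 CPM in wild-type NK cells. Gm42418 overlaps a ribosomal RNA locus, so its counts are uncertain.

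To see what set the NK cells apart from T cells of the same fat pads, UMIs were summed per library over NK cells and over CD3 T cells and compared with edgeR's quasi-likelihood test, with the library as a block. Of 6735 genes tested, 233 (3.46%) were higher and 223 (3.31%) lower in NK cells at an adjusted p under 0.05. Without the Pdgfrb-Cre library 133 were higher, without the Pdgfra-Cre library 148, and without the block 72 were higher and 34 lower. Genes of the rule are left out, and since the rule chose cells by NK receptors and absent CD3, the receptor and T cell lists below are described by their values alone.

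Lectin-like receptors stood far apart between NK cells and T cells. Klra4 (Ly49D), an activating Ly49 receptor, had 61.8 CPM in NK cells and 0 CPM in T cells of Pdgfra-Cre, 331 CPM in NK cells and 0.269 CPM in T cells of Pdgfrb-Cre and 145 CPM in NK cells and 0.287 CPM in T cells of wild type. Klra8 (Ly49H), the receptor for a cytomegalovirus protein, had 136 CPM in NK cells and 1.9 CPM in T cells of Pdgfra-Cre, 289.7 CPM in NK cells and 0.897 CPM in T cells of Pdgfrb-Cre and 20.7 CPM in NK cells and 0 CPM in T cells of wild type. Klrb1b, an inhibitory receptor of the NK1.1 family, had 157 CPM in NK cells and 1.9 CPM in T cells of Pdgfra-Cre, 183 CPM in NK cells and 0.987 CPM in T cells of Pdgfrb-Cre and 117 CPM in NK cells and 0 CPM in T cells of wild type. T cells of every library were thus at under 2 CPM for all 3 genes. Ly49 reads can be shared between near-identical genes, so single Klra values are uncertain.

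Of the 22 lectin-like receptor genes (Klr genes) with a position, all lie on mouse chromosome 6, and 21 of them, all but Klrg1, sit in one block of 1.78 Mb at chr6:128609227-130386874 (GENCODE M21, GRCm38), the NK gene complex. The rule genes Klrb1c, Klre1 and Klrk1 lie in that block.

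Several cytotoxic genes were higher in NK cells than in T cells. The rule also counted the granule gene Gzma, and T cells were chosen to lack Ncr1, Klrb1c and Klre1. How far this selection shaped the difference was not tested. Prf1 (perforin) had 437 CPM in NK cells and 32.3 CPM in T cells of Pdgfra-Cre, 469 CPM in NK cells and 20.5 CPM in T cells of Pdgfrb-Cre and 179 CPM in NK cells and 18.1 CPM in T cells of wild type (log2 fold change 3.69 ± 0.27 (SE), adjusted p = 1.86e-05, edgeR's quasi-likelihood test). Gzmb (granzyme B) had 639 CPM in NK cells and 167 CPM in T cells of Pdgfra-Cre, 776 CPM in NK cells and 55.6 CPM in T cells of Pdgfrb-Cre and 75.9 CPM in NK cells and 24.1 CPM in T cells of wild type (log2 fold change 2.36 ± 0.39 (SE), adjusted p = 0.00388, same test). Every library showed the difference, with the smallest gap for Gzmb in wild type. The granzyme inhibitors Serpinb9 (log2 fold change 3.25 ± 0.25 (SE), adjusted p = 2.11e-05) and Serpinb6b (log2 fold change 3.20 ± 0.30 (SE), adjusted p = 9.21e-05) were higher too, as were Nkg7 (log2 fold change 1.86 ± 0.23 (SE), adjusted p = 5.38e-04) and Ctsw (cathepsin W; log2 fold change 1.41 ± 0.20 (SE), adjusted p = 0.00177). Of 14 granule genes tested 7 were higher and 1 lower, Gzmm (granzyme M), whose adjusted p of 0.015 became 0.12 without the Pdgfra-Cre library and 0.17 without the Pdgfrb-Cre library. Over all genes tested 3.46% were higher and 3.31% lower. Gzmk had no UMI in any NK cell and 109 CPM in Pdgfra-Cre T cells.

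The same held, under the same selection, against CD8 T cells, the T cells closest to NK cells in function. These were CD3 T cells with a Cd8a or Cd8b1 UMI and no Cd4 UMI, 160 in Pdgfra-Cre, 797 in Pdgfrb-Cre and 184 in wild type. Of 5982 genes tested, 345 (5.77%) were higher and 275 (4.6%) lower in NK cells, or 127 and 147 without the Pdgfrb-Cre library. Again 7 of 14 granule genes were higher and 1 lower. Gzmb (log2 fold change 2.30, adjusted p = 0.00165, edgeR's quasi-likelihood test) and Prf1 (3.16, adjusted p = 1.92e-05) were called in both comparisons.

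Chemokines formed a second large difference. Ccl3, an inflammatory chemokine that attracts leukocytes, had 713 CPM in NK cells and 27.2 CPM in T cells of Pdgfra-Cre, 1701 CPM in NK cells and 7.8 CPM in T cells of Pdgfrb-Cre and 739 CPM in NK cells and 9.77 CPM in T cells of wild type (log2 fold change 6.06 ± 0.51 (SE), adjusted p = 4.16e-05, edgeR's quasi-likelihood test). Xcl1, which attracts cross-presenting dendritic cells, had 655 CPM in NK cells and 96.3 CPM in T cells of Pdgfra-Cre, 1690.2 CPM in NK cells and 48.7 CPM in T cells of Pdgfrb-Cre and 1187 CPM in NK cells and 31.6 CPM in T cells of wild type (log2 fold change 4.17 ± 0.43 (SE), adjusted p = 1.52e-04, same test). Ccl4 (log2 fold change 3.30 ± 0.24 (SE), adjusted p = 1.76e-05) and Ccl5 (log2 fold change 1.86 ± 0.29 (SE), adjusted p = 0.00282) were higher too. Barcodes with NK markers and a CD3 UMI, which these T cells leave out, had Ccl5 at 20804 CPM in Pdgfra-Cre, 7636 CPM in Pdgfrb-Cre and 7654 CPM in wild type. NK cells lay below that group in Pdgfra-Cre (14922 CPM) and wild type (4073 CPM) and above it in Pdgfrb-Cre (9831 CPM). Against 3.46% higher and 3.31% lower over all genes tested, 6 of 10 effector cytokine and chemokine genes were higher and none lower. Ifng (interferon gamma) was among them with an adjusted p of 0.036, which became 0.14 without the Pdgfrb-Cre library and 0.11 without the wild-type library. Csf2 and Il2 stayed at or near 0.

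**Figure D2:**
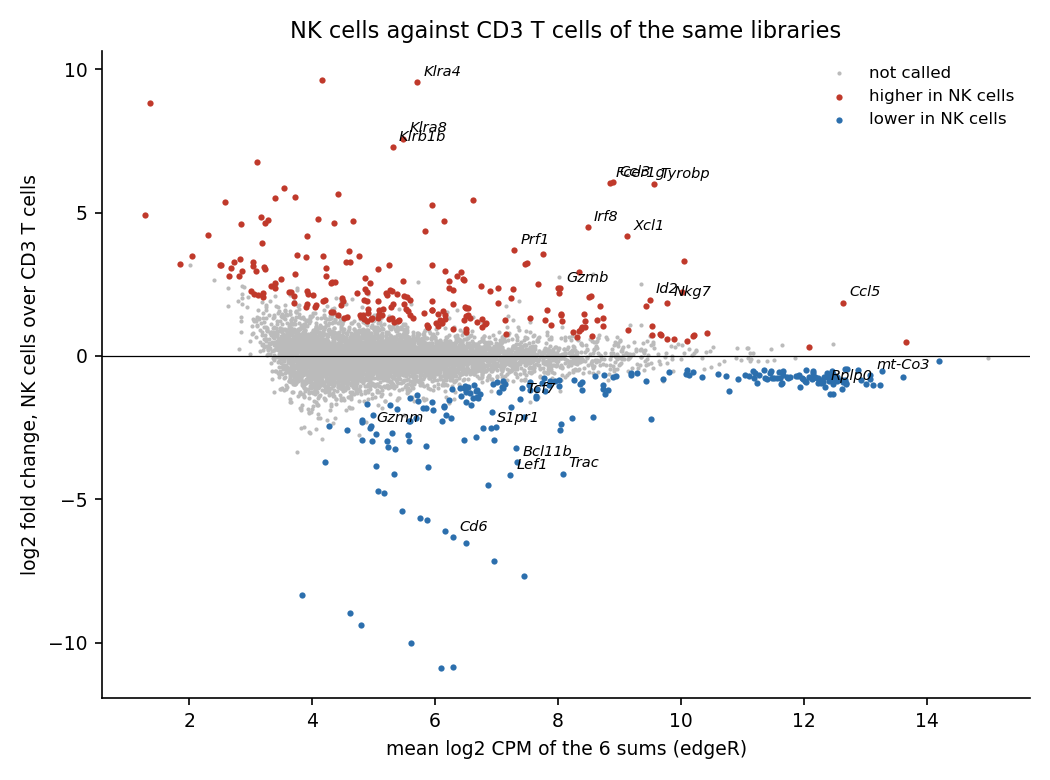
Log2 fold change of NK cells over CD3 T cells against mean level for 6735 genes, from edgeR with the library as a block. Red and blue points had an adjusted p under 0.05. NK receptors and chemokines reached the top (Klra4 at 9.54), Cd6 and Trac lay low, and ribosomal protein genes formed a band just below 0 at the highest levels.

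Among transcription factors, 4 of 18 tested were higher and 2 lower, against 3.46% higher and 3.31% lower over all genes tested. Irf8, an interferon regulatory factor known in lymphoid and myeloid cells, had 1001 CPM in NK cells and 18.4 CPM in T cells of Pdgfra-Cre, 1218 CPM in NK cells and 24.8 CPM in T cells of Pdgfrb-Cre and 117 CPM in NK cells and 26.4 CPM in T cells of wild type (log2 fold change 4.50 ± 0.63 (SE), adjusted p = 0.0014, edgeR's quasi-likelihood test). Id2, which is required for NK cells and other innate lymphocytes, had 1219.8 CPM in NK cells and 305 CPM in T cells of Pdgfra-Cre, 1442 CPM in NK cells and 279 CPM in T cells of Pdgfrb-Cre and 1091 CPM in NK cells and 228 CPM in T cells of wild type (log2 fold change 1.96 ± 0.14 (SE), adjusted p = 1.76e-05, same test). The gap in Irf8 was smallest in wild type, while Id2 stood well above T cells in all 3 libraries. Bhlhe40 (log2 fold change 2.08 ± 0.27 (SE), adjusted p = 8.57e-04) and Zeb2 were higher, and the call of Zeb2 (adjusted p = 0.0077, edgeR) was lost without the Pdgfra-Cre library (0.0501) or the Pdgfrb-Cre library (0.18). Tcf7 and Klf2 were lower, with adjusted p-values of 0.0075 and 0.017 that became 0.057 and 0.056 without the Pdgfra-Cre library and 0.047 and 0.13 without the Pdgfrb-Cre library. Eomes and Tbx21, T-box factors of NK cells that were also detected in T cells, missed the threshold (adjusted p = 0.41 and 0.054, edgeR's quasi-likelihood test).

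Genes of movement and response also differed. S1pr1, the receptor for exit from tissue into lymph, had 16.5 CPM in NK cells and 101 CPM in T cells of Pdgfra-Cre, 41.4 CPM in NK cells and 183 CPM in T cells of Pdgfrb-Cre and 34.5 CPM in NK cells and 161 CPM in T cells of wild type (log2 fold change -2.52 ± 0.27 (SE), adjusted p = 1.79e-04, edgeR's quasi-likelihood test), and Ccr7, which guides cells to lymph nodes, was lower as well (log2 fold change -2.37 ± 0.27 (SE), adjusted p = 3.61e-04). The integrin chains Itga2 (CD49b; log2 fold change 4.65 ± 0.64 (SE), adjusted p = 0.00118) and Itgb1 (log2 fold change 1.45 ± 0.19 (SE), adjusted p = 7.81e-04) were higher, and 8 of 22 homing and adhesion genes were higher and 4 lower. Of 15 cytokine receptor genes 3 were higher and 1 lower, Il2rb, Il12rb2 and Il18rap against Ifngr2. The shares over all genes tested were 3.46% higher and 3.31% lower. Il2rb is the shared beta chain of the interleukin 2 and 15 receptors, and its call was lost without the Pdgfrb-Cre library (adjusted p = 0.0602, edgeR), as were those of Il12rb2 (0.075) and Ifngr2 (0.21; 0.17 without the Pdgfra-Cre library).

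Outside these lists, Car2 (carbonic anhydrase 2; log2 fold change 5.28 ± 0.30 (SE), adjusted p = 4.63e-06), Spry2, a brake on receptor tyrosine kinase signals (log2 fold change 4.71 ± 0.29 (SE), adjusted p = 5.47e-06), and Cited4 (log2 fold change 4.79 ± 0.70 (SE), adjusted p = 0.00193) were among the 12 genes most raised over T cells. Hes1, a Notch target, was at 124 CPM in Pdgfra-Cre, 221 CPM in Pdgfrb-Cre and 186 CPM in wild-type NK cells (log2 fold change 4.36 ± 0.44 (SE), adjusted p = 1.44e-04, edgeR's quasi-likelihood test). Among those most reduced, besides genes of the T lineage, which the rule touches through CD3, such as Cd6, Lef1, Bcl11b and Ctla4, were Gm8369, Rgs10, Fam241a, Klk8 and Dusp10.

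Ribosomal protein and mitochondrial genes were lower in NK cells. Of 16 large subunit ribosomal genes 14 were lower, for example Rplp0 with 2959 CPM in NK cells and 5473 CPM in T cells of Pdgfra-Cre, 3981 CPM in NK cells and 6936 CPM in T cells of Pdgfrb-Cre and 3562 CPM in NK cells and 6130.3 CPM in T cells of wild type (log2 fold change -1.07 ± 0.06 (SE), adjusted p = 5.47e-06, edgeR's quasi-likelihood test). Of 12 genes of the mitochondrial genome 9 were lower, for example mt-Co3 (log2 fold change -0.66 ± 0.06 (SE), adjusted p = 5.19e-05). The share called lower over all genes tested was 3.31%. The median change was -0.75 on the log2 scale for the ribosomal list and -0.53 for the mitochondrial list, against -0.03 over all genes tested. NK cells held fewer UMIs than T cells in every library, with medians of 4559 against 5416 in Pdgfra-Cre, 4876 against 6327 in Pdgfrb-Cre and 4643 against 5444 in wild type, and the part of depth in this difference was not tested.

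**Figure D3:**
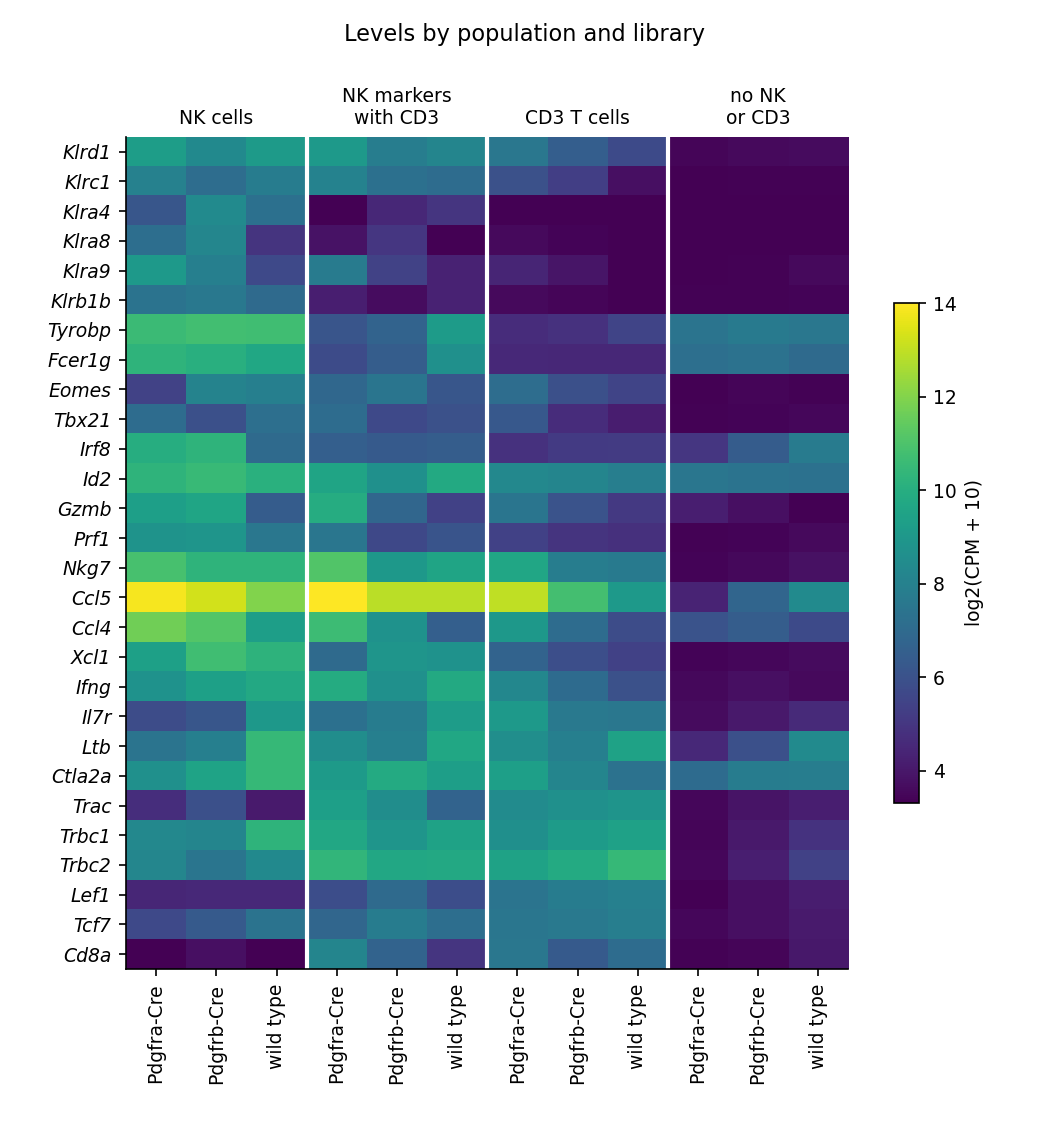
Levels as log2 of CPM plus 10 in NK cells, in barcodes with NK markers and a CD3 UMI, in CD3 T cells and in barcodes with neither, each by library. Tyrobp, Fcer1g and the Klra genes were highest in NK cells, Trac in T cells, and double-positive barcodes had T cell receptor genes together with Klrd1, Nkg7 and Ccl5.

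The NK cells themselves were not alike across genotypes. Genes with a mean of at least 100 CPM over the libraries' NK cells and no part in the rule were compared, 1284 in all, by a log2 ratio with 10 CPM added to both sides. A gene could pass that mean through 1 library where it was high, and such genes count readily as past 2-fold. This holds for the lists and for all 1284 genes alike. In Pdgfra-Cre against wild-type NK cells 150 genes (11.7%) were at least 2-fold higher and 51 (3.97%) at least 2-fold lower. In Pdgfrb-Cre against wild-type NK cells 179 genes (13.9%) were higher and 63 (4.91%) lower by that measure. The median ratio over all 1284 genes was 0.10 and 0.11. With totals that left out mitochondrial and ribosomal protein genes, which lowered that median by 0.17 in Pdgfra-Cre, the first split became 119 higher and 90 lower. With 1 library a genotype none of this is tested, and both comparisons share the wild-type library, so their likeness is not independent. Gene lists were chosen with earlier results of these data known. Their counts and medians below therefore describe the data and give no independent support.

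Cytotoxic granule genes were higher in both Cre libraries. Gzmb had 639 CPM in Pdgfra-Cre, 776 CPM in Pdgfrb-Cre and 75.9 CPM in wild-type NK cells, and its ratio over wild type was 8.41 (4.57 to 17.2) in Pdgfra-Cre and 10.2 (5.6 to 20.8) in Pdgfrb-Cre. It was detected in 55.8% of Pdgfra-Cre, 61.7% of Pdgfrb-Cre and 11.1% of wild-type NK cells, against 1.15% of Pdgfra-Cre, 0.446% of Pdgfrb-Cre and 0% of wild-type barcodes without NK or CD3 UMIs. After each cell was thinned to 1500 UMIs, which left out 2 Pdgfra-Cre, 1 Pdgfrb-Cre and 2 wild-type cells, the shares were 41.5% of Pdgfra-Cre, 43.5% of Pdgfrb-Cre and 4% of wild-type NK cells. Only 3 wild-type NK cells carried Gzmb, and 1 of them held 63.6% of its UMIs.

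Prf1 followed with 437 CPM in Pdgfra-Cre, 469 CPM in Pdgfrb-Cre and 179 CPM in wild-type NK cells, a ratio of 2.43 (1.57 to 3.9) in Pdgfra-Cre and 2.61 (1.71 to 4.14) in Pdgfrb-Cre. Serpinb9 had 482 CPM in Pdgfra-Cre, 589.8 CPM in Pdgfrb-Cre and 96.6 CPM in wild-type NK cells, and Serpinb6b had 453 CPM in Pdgfra-Cre, 586 CPM in Pdgfrb-Cre and 110.4 CPM in wild-type NK cells. Both protect the cell from its own granzymes, and the Cre libraries lay above wild type without overlap of intervals. Of 8 measured granule genes 4 were past 2-fold higher in Pdgfra-Cre and 5 in Pdgfrb-Cre, against 11.7% and 13.9% of all genes. None was past 2-fold lower, though 1 in Pdgfra-Cre and 3 in Pdgfrb-Cre lay below wild type. The list's median was 0.97 in Pdgfra-Cre and 1.24 in Pdgfrb-Cre, against 0.10 and 0.11 for all genes, and in CD3 T cells the same genes had medians of 1.10 and 0.36. Ctsw ran the other way with 437 CPM in Pdgfra-Cre, 331 CPM in Pdgfrb-Cre and 559 CPM in wild-type NK cells. In CD3 T cells the Gzmb ratio was 2.37 in Pdgfra-Cre and 0.94 in Pdgfrb-Cre on the log2 scale, against 2.92 and 3.19 in NK cells, so T cells of the Pdgfra-Cre library differed the same way.

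Windows around the transcription starts are shown for 4 genes, so that a gene the cells were chosen by can be read beside genes that differed between libraries: the rule gene Ncr1, the granule genes Gzmb and Prf1 that were high in Cre NK cells, and Ltb, which was high in wild-type NK cells. Each runs 250 bases before to 50 after the start (RefSeq, GRCm38.p6), in the direction of transcription. Capitals mark the RUNX motif TGTGGT and the T-box motif AGGTGT on either strand.
Ncr1, chr7:4337465-4337764, plus strand: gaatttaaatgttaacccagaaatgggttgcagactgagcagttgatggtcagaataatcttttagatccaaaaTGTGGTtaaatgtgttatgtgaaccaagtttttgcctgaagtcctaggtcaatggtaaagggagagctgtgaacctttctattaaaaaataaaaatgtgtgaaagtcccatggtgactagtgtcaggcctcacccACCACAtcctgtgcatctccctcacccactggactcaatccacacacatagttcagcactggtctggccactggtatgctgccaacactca
Gzmb, chr14:56262285-56262584, minus strand: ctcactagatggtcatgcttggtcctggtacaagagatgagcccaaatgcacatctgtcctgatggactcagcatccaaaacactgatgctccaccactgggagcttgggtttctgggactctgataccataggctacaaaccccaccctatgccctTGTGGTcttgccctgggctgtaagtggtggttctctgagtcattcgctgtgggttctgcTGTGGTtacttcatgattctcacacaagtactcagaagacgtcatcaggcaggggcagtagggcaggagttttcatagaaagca
Prf1, chr10:61297586-61297885, plus strand: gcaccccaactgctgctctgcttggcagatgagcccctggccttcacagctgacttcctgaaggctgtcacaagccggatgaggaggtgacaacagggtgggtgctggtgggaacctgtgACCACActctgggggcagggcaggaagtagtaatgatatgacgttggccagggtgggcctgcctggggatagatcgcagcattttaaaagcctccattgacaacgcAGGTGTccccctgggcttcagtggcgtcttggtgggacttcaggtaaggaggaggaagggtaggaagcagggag
Ltb, chr17:35194257-35194556, plus strand: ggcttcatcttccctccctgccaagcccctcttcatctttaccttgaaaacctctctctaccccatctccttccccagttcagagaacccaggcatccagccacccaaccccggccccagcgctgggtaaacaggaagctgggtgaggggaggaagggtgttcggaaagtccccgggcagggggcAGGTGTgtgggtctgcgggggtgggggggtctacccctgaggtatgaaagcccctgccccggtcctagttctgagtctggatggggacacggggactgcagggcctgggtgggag

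TGTGGT was found in the Ncr1, Gzmb and Prf1 windows and not in that of Ltb, and AGGTGT in those of Prf1 and Ltb. Among the 5 marker genes of the rule, all 5 held TGTGGT and 1 held AGGTGT, against 16.8% and 13.7% of 32851 gene windows. Of the other motifs searched, on both strands, GGTGTGA was in none of the 5 and in 3.98% of all windows, and AGGAAGT in none of the 5 and in 9.35% of all windows. Among the windows shown, only that of Prf1 held AGGAAGT, which is not in capitals. A marker gene counted if any of its windows held the motif, and Ncr1 has 2 windows, whereas the percentages count single windows. These matches describe letters alone and say nothing of binding.

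The chemokines Ccl4 and Ccl5 were higher in Cre NK cells. Ccl4 had 3309 CPM in Pdgfra-Cre, 2221 CPM in Pdgfrb-Cre and 628 CPM in wild-type NK cells, a ratio of 5.27 (4.24 to 6.62) in Pdgfra-Cre and 3.54 (2.84 to 4.45) in Pdgfrb-Cre. Ccl5, given above, had ratios of 3.66 (3.36 to 4) in Pdgfra-Cre and 2.41 (2.21 to 2.64) in Pdgfrb-Cre. Ccl5 was detected in 90.7% of Pdgfra-Cre, 95.7% of Pdgfrb-Cre and 92.6% of wild-type NK cells, against 6.44% of Pdgfra-Cre, 5.95% of Pdgfrb-Cre and 9.76% of wild-type barcodes without NK or CD3 UMIs, so the difference was in level and hardly in the share of cells. In CD3 T cells the log2 ratio of Ccl5 was 3.94 in Pdgfra-Cre and 1.75 in Pdgfrb-Cre, against 1.87 and 1.27 in NK cells. That of Ccl4 was 3.22 and 1.30 in T cells, against 2.38 and 1.81 in NK cells, so both genes were higher in Cre T cells too. Ccl3 had 713 CPM in Pdgfra-Cre, 1701 CPM in Pdgfrb-Cre and 739 CPM in wild-type NK cells and was past 2-fold in Pdgfrb-Cre only; without the cells that carried other markers its log2 ratio was 0.58 in Pdgfra-Cre and 1.96 in Pdgfrb-Cre. Fasl, the death ligand, had 247 CPM in Pdgfra-Cre, 141 CPM in Pdgfrb-Cre and 48.3 CPM in wild-type NK cells.

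Interferon gamma and lymphotactin did not follow. Ifng had 420.4 CPM in Pdgfra-Cre, 652 CPM in Pdgfrb-Cre and 849 CPM in wild-type NK cells, and Xcl1 had 655 CPM in Pdgfra-Cre, 1690.2 CPM in Pdgfrb-Cre and 1187 CPM in wild-type NK cells, lowest in Pdgfra-Cre for both. Ifng and Xcl1 were seen together in 15 of 43 Pdgfra-Cre, 30 of 47 Pdgfrb-Cre and 16 of 27 wild-type NK cells. Of 7 measured cytokine and chemokine genes 3 were past 2-fold higher and 1 lower in Pdgfra-Cre, and 4 higher and 1 lower in Pdgfrb-Cre, the lower one being Ltb in both. The shares over all genes were 11.7% higher and 3.97% lower in Pdgfra-Cre, and 13.9% and 4.91% in Pdgfrb-Cre.

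**Figure D4:**
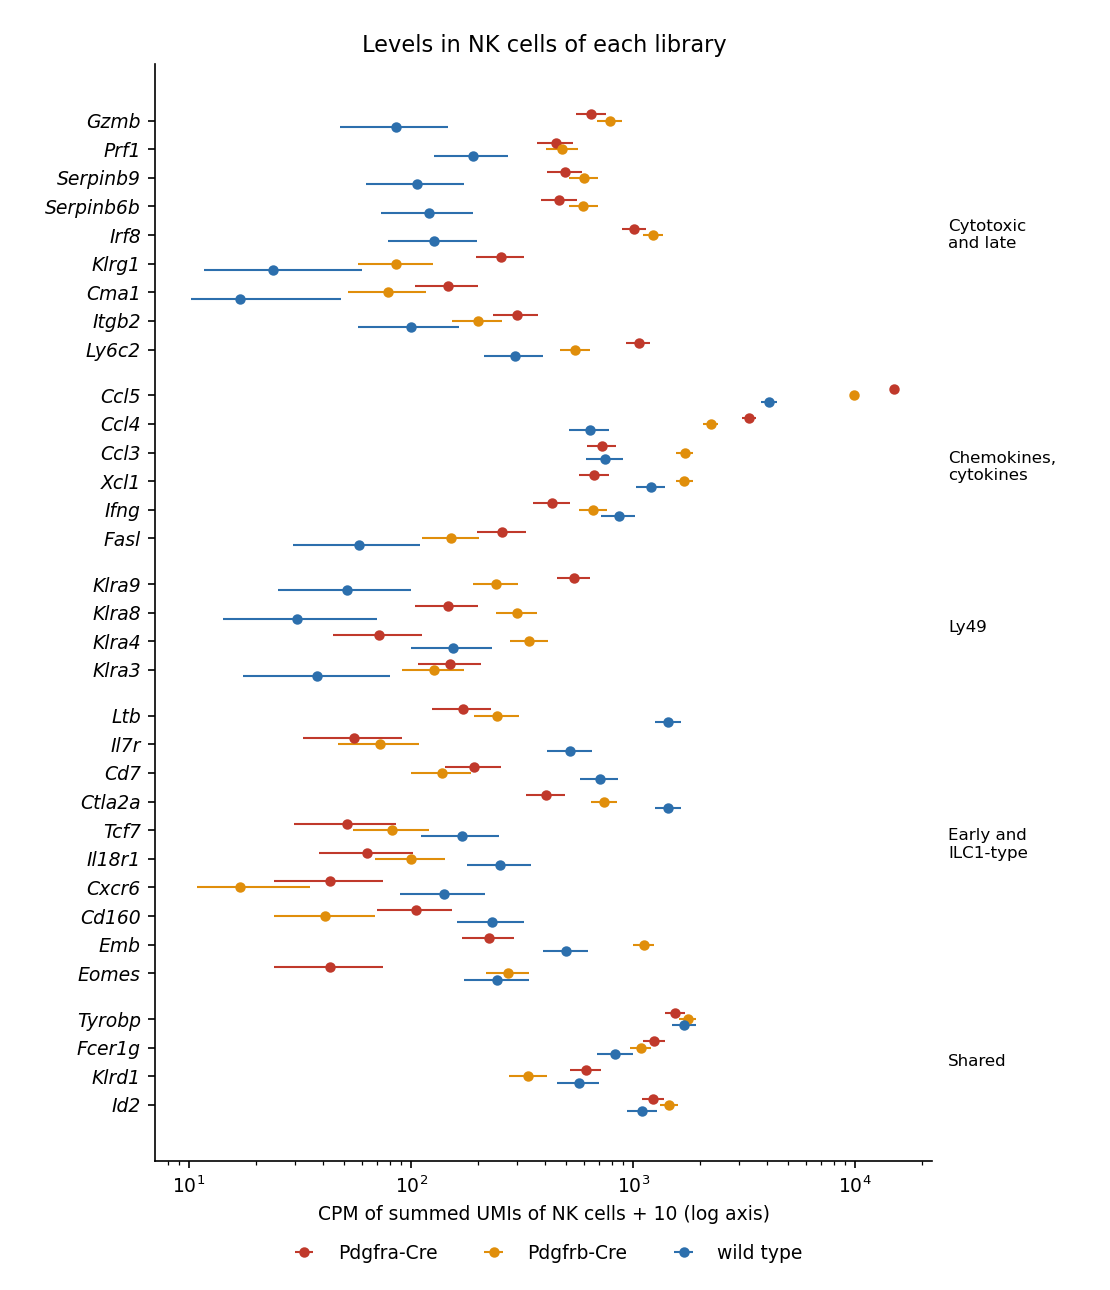
CPM plus 10 of summed NK cells on a log axis, with exact 95% Poisson intervals, for genes of the named groups in each library. Granule and late genes, Ccl4 and Ccl5 lay higher in the Cre libraries, Ltb, Il7r, Cd7 and Ctla2a lay higher in wild type, and Tyrobp and Id2 differed little.

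Genes of the late, CD11b-type stage were higher in Cre NK cells. Klrg1, an inhibitory receptor of mature cells, had 243 CPM in Pdgfra-Cre, 75.9 CPM in Pdgfrb-Cre and 13.8 CPM in wild-type NK cells, a ratio of 17.6 (4.66 to 149) in Pdgfra-Cre and 5.5 (1.35 to 48.2) in Pdgfrb-Cre. Irf8 had 1001 CPM in Pdgfra-Cre, 1218 CPM in Pdgfrb-Cre and 117 CPM in wild-type NK cells, a ratio of 8.53 (5.22 to 14.9) in Pdgfra-Cre and 10.4 (6.39 to 18) in Pdgfrb-Cre. In T cells Irf8 showed no such shift, with log2 ratios of -0.36 and -0.07. Itgb2, the beta chain of CD11b and LFA-1, had 288 CPM in Pdgfra-Cre, 189.7 CPM in Pdgfrb-Cre and 89.7 CPM in wild-type NK cells. The chymase gene Cma1 had 136 CPM in Pdgfra-Cre, 69 CPM in Pdgfrb-Cre and 6.9 CPM in wild-type NK cells, where the wild-type value is 1 UMI. Itgam (CD11b) itself was low, with 82.4 CPM in Pdgfra-Cre, 31 CPM in Pdgfrb-Cre and 6.9 CPM in wild-type NK cells. Of 10 measured late genes 6 were past 2-fold higher in Pdgfra-Cre, with Ly6c2 among them, and 6 in Pdgfrb-Cre, with Zeb2 among them and 1, Tbx21, lower. Klrg1 reached 100 CPM in Pdgfra-Cre only and so entered this count through that library. Over all genes 11.7% were past 2-fold higher in Pdgfra-Cre, and 13.9% higher and 4.91% lower in Pdgfrb-Cre. The list's median was 1.41 in Pdgfra-Cre and 1.08 in Pdgfrb-Cre, against 0.10 and 0.11 for all genes, and in CD3 T cells it was 0.76 and 0.18.

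Early, CD27-type genes were higher in wild-type NK cells. Ltb (lymphotoxin beta), which organises lymphoid tissue, had 161 CPM in Pdgfra-Cre, 235 CPM in Pdgfrb-Cre and 1429 CPM in wild-type NK cells and was 8.89 (6.29 to 12.9) times lower in Pdgfra-Cre and 6.09 (4.61 to 8.13) times lower in Pdgfrb-Cre. Il7r, the interleukin 7 receptor alpha chain, had 45.3 CPM in Pdgfra-Cre, 62.1 CPM in Pdgfrb-Cre and 511 CPM in wild-type NK cells and was 11.3 (5.95 to 23.5) times lower in Pdgfra-Cre and 8.23 (4.86 to 14.6) times lower in Pdgfrb-Cre. The groups' intervals did not overlap for either gene. Without thinning Il7r was detected in 14% of Pdgfra-Cre, 23.4% of Pdgfrb-Cre and 51.9% of wild-type NK cells, against 1.34% of Pdgfra-Cre, 2.28% of Pdgfrb-Cre and 3.16% of wild-type barcodes without NK or CD3 UMIs. After thinning, it was detected in 7.32% of Pdgfra-Cre, 8.7% of Pdgfrb-Cre and 48% of wild-type NK cells. In Pdgfra-Cre T cells Il7r was higher than in wild-type T cells, at a log2 ratio of 1.52 against -3.23 in NK cells. Ltb was lower in Cre T cells too (-0.91 in Pdgfra-Cre and -1.56 in Pdgfrb-Cre).

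Cd7, a surface protein of early lymphocytes, had 181 CPM in Pdgfra-Cre, 128 CPM in Pdgfrb-Cre and 697 CPM in wild-type NK cells. Tcf7, the factor TCF-1 of early NK cells, had 41.2 CPM in Pdgfra-Cre, 72.4 CPM in Pdgfrb-Cre and 159 CPM in wild-type NK cells, and Il18r1, a chain of the interleukin 18 receptor, had 53.6 CPM in Pdgfra-Cre, 89.7 CPM in Pdgfrb-Cre and 242 CPM in wild-type NK cells. These 3 genes were lowest in one of the Cre libraries and highest in wild type. Ctla2a, a cathepsin inhibitor, showed 3 steps, with 396 CPM in Pdgfra-Cre, 728 CPM in Pdgfrb-Cre and 1429 CPM in wild-type NK cells. Cd27 itself stayed within 2-fold of wild type in both comparisons, and Emb was highest in Pdgfrb-Cre (214 CPM in Pdgfra-Cre, 1107 CPM in Pdgfrb-Cre and 490.1 CPM in wild-type NK cells). Of 7 measured early genes 5 were past 2-fold lower in Pdgfra-Cre, and 3 were lower and 1, Emb, higher in Pdgfrb-Cre. Over all genes 3.97% were past 2-fold lower in Pdgfra-Cre, and 4.91% lower and 13.9% higher in Pdgfrb-Cre. The list's median was -1.83 in Pdgfra-Cre and -0.96 in Pdgfrb-Cre, against 0.10 and 0.11 for all genes, and leaving out the cells with other markers gave -1.53 and -0.65. In CD3 T cells the median of the same genes was 1.35 in Pdgfra-Cre and 0.10 in Pdgfrb-Cre.

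Early and late genes of these same lists were also counted in each cell. At least 6 of the 12 early genes were detected in 25.6% of Pdgfra-Cre, 44.7% of Pdgfrb-Cre and 85.2% of wild-type NK cells. At least 6 of the 16 late genes were detected in 58.1% of Pdgfra-Cre, 48.9% of Pdgfrb-Cre and 25.9% of wild-type NK cells. The median cell had 3 early and 6 late genes in Pdgfra-Cre, 5 and 5 in Pdgfrb-Cre, and 7 and 3 in wild type, at close median depths. Gzmb and Il7r were seen in the same cell in 3 of 43 Pdgfra-Cre, 5 of 47 Pdgfrb-Cre and 0 of 27 wild-type NK cells. Gzmb without Il7r was seen in 21 Pdgfra-Cre, 24 Pdgfrb-Cre and 3 wild-type cells, and Il7r without Gzmb in 3 Pdgfra-Cre, 6 Pdgfrb-Cre and 14 wild-type cells.

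**Figure D5:**
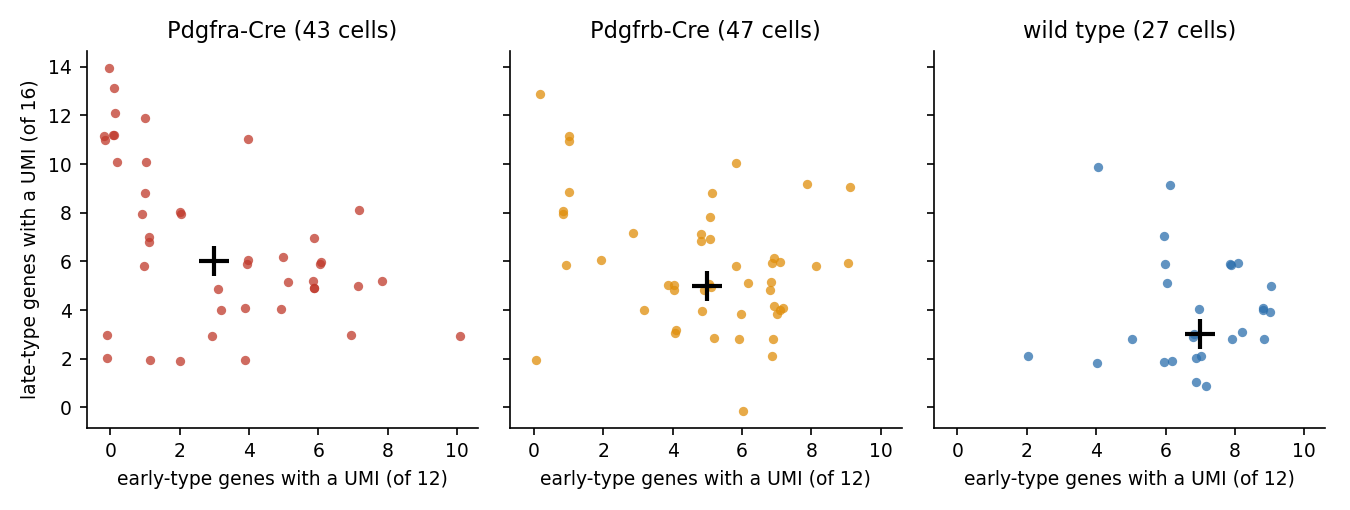
Number of early-type (of 12) and late-type (of 16) NK genes with a UMI in each NK cell, 1 panel per library, with a small random offset so that points do not overlap. Crosses mark medians. Cells with many late and few early genes stood at the upper left in the Cre libraries, and wild-type cells clustered at the right with a median of 7 early and 3 late genes.

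Ly49 receptors were carried by more of the Cre NK cells. At least 1 of 10 Klra genes was detected in 69.8% (53.9 to 82.8) of Pdgfra-Cre, 76.6% (62.0 to 87.7) of Pdgfrb-Cre and 37.0% (19.4 to 57.6) of wild-type NK cells, and at least 3 in 5 Pdgfra-Cre, 14 Pdgfrb-Cre and 3 wild-type cells. Klra9 (Ly49I), an inhibitory receptor, had 532 CPM in Pdgfra-Cre, 231 CPM in Pdgfrb-Cre and 41.4 CPM in wild-type NK cells. Klra8 had 136 CPM in Pdgfra-Cre, 289.7 CPM in Pdgfrb-Cre and 20.7 CPM in wild-type NK cells, and Klra4 had 61.8 CPM in Pdgfra-Cre, 331 CPM in Pdgfrb-Cre and 145 CPM in wild-type NK cells. The 3 receptors therefore peaked in different libraries, Klra9 in Pdgfra-Cre and both Klra8 and Klra4 in Pdgfrb-Cre. Klrd1 (602 CPM in Pdgfra-Cre, 328 CPM in Pdgfrb-Cre and 559 CPM in wild-type NK cells) and its partner Klrc1 (NKG2A; 251 CPM in Pdgfra-Cre, 131 CPM in Pdgfrb-Cre and 214 CPM in wild-type NK cells) stayed within 2-fold of wild type. The list of lectin-like receptors mixes inhibitory genes with the activating Klra4 and Klra8. Of its 7 measured genes, Klrg1, Klra9 and Klra8 were past 2-fold higher and Klra4 lower in Pdgfra-Cre, and all 4 were higher in Pdgfrb-Cre. Among all genes 11.7% were higher and 3.97% lower in Pdgfra-Cre, and 13.9% higher in Pdgfrb-Cre. Which Klra genes a mouse carries depends on its strain, and no source used here names the strains.

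A separate list of activating receptors and adaptors held no Ly49 gene. Tyrobp had 1529 CPM in Pdgfra-Cre, 1752 CPM in Pdgfrb-Cre and 1691 CPM in wild-type NK cells, and Hcst, the DAP10 adaptor of NKG2D, had 824 CPM in Pdgfra-Cre, 531 CPM in Pdgfrb-Cre and 442 CPM in wild-type NK cells. Cd160, an activating receptor also found on ILC1 cells, had 94.8 CPM in Pdgfra-Cre, 31 CPM in Pdgfrb-Cre and 221 CPM in wild-type NK cells. Apart from Cd160 in both comparisons and Klrb1f in Pdgfrb-Cre (128 CPM in Pdgfra-Cre, 62.1 CPM in Pdgfrb-Cre and 159 CPM in wild-type NK cells), the measured genes of this list were within 2-fold. Among the rule's own genes, whose levels are a description, Ncr1 had 293 CPM in Pdgfra-Cre, 152 CPM in Pdgfrb-Cre and 773 CPM in wild-type NK cells, Klre1 had 565 CPM in Pdgfra-Cre, 248 CPM in Pdgfrb-Cre and 166 CPM in wild-type NK cells and Gzma had 5955 CPM in Pdgfra-Cre, 3808 CPM in Pdgfrb-Cre and 718 CPM in wild-type NK cells. Ncr1 was highest in wild type and Gzma lowest there.

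The T-box factors split the Cre libraries. Eomes, which marks conventional NK cells against ILC1, had 33 CPM in Pdgfra-Cre, 262 CPM in Pdgfrb-Cre and 235 CPM in wild-type NK cells, 7.12 (3.23 to 17.8) times lower in Pdgfra-Cre. Tbx21 (T-bet), needed for NK maturation and ILC1, had 128 CPM in Pdgfra-Cre, 51.7 CPM in Pdgfrb-Cre and 138 CPM in wild-type NK cells, 2.67 (1.3 to 5.6) times lower in Pdgfrb-Cre. Both were detected together in 2 of 43 Pdgfra-Cre, 7 of 47 Pdgfrb-Cre and 7 of 27 wild-type NK cells, while Tbx21 without Eomes was seen in 21 Pdgfra-Cre, 3 Pdgfrb-Cre and 9 wild-type cells and Eomes without Tbx21 in 4 Pdgfra-Cre, 16 Pdgfrb-Cre and 4 wild-type cells. Rora, a nuclear receptor of innate lymphoid cells, had 65.9 CPM in Pdgfra-Cre, 252 CPM in Pdgfrb-Cre and 276 CPM in wild-type NK cells. Of 12 measured factors 1 was past 2-fold higher and 2 lower in Pdgfra-Cre, and 3 were higher and 1 lower in Pdgfrb-Cre. For all genes the shares were 11.7% higher and 3.97% lower in Pdgfra-Cre, and 13.9% and 4.91% in Pdgfrb-Cre. Nfil3, Runx3 and Bhlhe40 were highest in Pdgfrb-Cre, with Bhlhe40 at 581 CPM in Pdgfra-Cre, 889.9 CPM in Pdgfrb-Cre and 490.1 CPM in wild-type NK cells.

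Measured ILC1-type genes were lower in Cre NK cells as a list. Of 6 measured members 4 were past 2-fold lower in each comparison, with medians of -1.36 in Pdgfra-Cre and -1.17 in Pdgfrb-Cre, while in CD3 T cells the medians were 1.63 and 0.27. They were Il7r, Cd160 and Cd69 in both, with Rora in Pdgfra-Cre and Tmem176a in Pdgfrb-Cre. The share past 2-fold lower over all genes was 3.97% in Pdgfra-Cre and 4.91% in Pdgfrb-Cre. Without the cells that carried other markers the list medians were -1.02 in Pdgfra-Cre and -1.75 in Pdgfrb-Cre. Il7r is also one of the early genes above, so the 2 lists are not separate results. Among cells with at least 3 of the 5 markers Cd160 turned the other way in Pdgfra-Cre, at a log2 ratio of 0.23. Cd69, an early activation and tissue-retention receptor, had 165 CPM in Pdgfra-Cre, 217 CPM in Pdgfrb-Cre and 511 CPM in wild-type NK cells. Itga1 went the other way, as given above, with wild type at 1 UMI. Itga1 and Cxcr6 missed the mean of 100 CPM and were not counted. Il7r and Cd160 reached 100 CPM in wild type only, so they passed the filter through the library where they were high.

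Other genes at the ends of the ranking had varied roles. Bcl2a1b, an inhibitor of apoptosis with near-identical copies, had 268 CPM in Pdgfra-Cre and 735 CPM in Pdgfrb-Cre NK cells and no UMI in wild-type NK cells, at least 12.9-fold and 35.5-fold higher against a floor of 3 UMIs (lower limits of the ratio's interval 10.2 and 28.6). Its copy Bcl2a1d had 144 CPM in Pdgfra-Cre, 172 CPM in Pdgfrb-Cre and 6.9 CPM in wild-type NK cells. Reads may be split between these copies. Stat3 had 194 CPM in Pdgfra-Cre, 807 CPM in Pdgfrb-Cre and 75.9 CPM in wild-type NK cells, and Litaf, a regulator of lysosomal traffic and cytokine genes, had 185 CPM in Pdgfra-Cre, 310.4 CPM in Pdgfrb-Cre and 20.7 CPM in wild-type NK cells. Slamf1 had 331 CPM in wild-type NK cells, from 5 of 27 cells, and none in either Cre library, at least 26.8-fold lower in Pdgfra-Cre and 32-fold lower in Pdgfrb-Cre against the same floor (lower limits 21 and 25.1). Cited4 had 12.4 CPM in Pdgfra-Cre, 65.5 CPM in Pdgfrb-Cre and 228 CPM in wild-type NK cells. Zfp512 was high in wild type through 1 cell that held 89.5% of its UMIs.

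Some of the largest ratios came from 1 or a few cells with other markers. Slpi reached 1834 CPM in Pdgfra-Cre from 1 cell. H2-Eb1, H2-Aa and Cd74 of MHC class II were 2.04 to 5.75 higher on the log2 scale in Cre NK cells, in sums that include the cells with other markers. Without those cells Cd74 was at -1.97 in Pdgfra-Cre and -2.27 in Pdgfrb-Cre and H2-Aa was below wild type too, whereas H2-Eb1 stayed above it at 1.83 and 1.25. Since 1 wild-type cell held 62.5% of the wild-type Cd74 UMIs, these Cd74 ratios depend largely on that cell. H2-Eb1 was also higher in the other kept barcodes of the Cre libraries, at 1.88 and 3.65. The immediate early gene Egr1 had 647 CPM in Pdgfra-Cre, 445 CPM in Pdgfrb-Cre and 96.6 CPM in wild-type NK cells, at log2 ratios of 2.62 and 2.09 with these cells and 0.63 and 0.13 without. By contrast Gzmb (3.03 and 3.38), Irf8 (3.1 and 3.45), Ltb (-2.82 and -2.50) and Il7r (-3.82 and -2.70) were as far or nearly as far from wild type without them.

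The inducible heat shock genes Hspa1a and Hspa1b were lower in Cre NK cells and in Cre T cells. Hspa1a had 701 CPM in Pdgfra-Cre, 245 CPM in Pdgfrb-Cre and 2009 CPM in wild-type NK cells, and Hspa1b had 462 CPM in Pdgfra-Cre, 124 CPM in Pdgfrb-Cre and 1353 CPM in wild-type NK cells. In T cells the log2 ratio of Hspa1a was -3.93 in Pdgfra-Cre and -4.06 in Pdgfrb-Cre, against -1.51 and -2.99 in NK cells, and that of Hspa1b in T cells was -2.92 and -4.10. Gm8797 and AC160336.1 were likewise lower in Cre cells of both kinds. Of 11 measured heat shock genes 5 were past 2-fold lower and 1 higher in Pdgfra-Cre, and 4 lower and 1 higher in Pdgfrb-Cre, the higher one being Hspa5, a chaperone of the endoplasmic reticulum, at 1422 CPM in Pdgfra-Cre, 2032 CPM in Pdgfrb-Cre and 676 CPM in wild-type NK cells. All genes together were past 2-fold lower in 3.97% and higher in 11.7% in Pdgfra-Cre, and in 4.91% and 13.9% in Pdgfrb-Cre. The heat shock list had medians of -0.83 and -0.36 in NK cells, against -0.30 and 0.22 in T cells. Mitochondrial genes had medians of -0.64 and -0.46 and ribosomal protein genes of -0.26 and -0.09 in Pdgfra-Cre and Pdgfrb-Cre. In T cells the mitochondrial medians were -0.66 and 0.02 and the ribosomal ones -0.18 and 0.01. The part of these differences in the NK gene differences was not tested.

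The remaining lists had smaller medians or few measured genes. Their counts past 2-fold stand beside 11.7% higher and 3.97% lower over all genes in Pdgfra-Cre, and 13.9% and 4.91% in Pdgfrb-Cre. MHC class I genes had medians of 0.33 in Pdgfra-Cre and -0.09 in Pdgfrb-Cre with 1 of 8 past 2-fold, in Pdgfrb-Cre. Of 3 measured interferon response genes 1, Ifi27l2a, was lower in each comparison. Of 5 measured proliferation genes 1 was higher in Pdgfra-Cre and 2 in Pdgfrb-Cre, with Stmn1 turning from 1.47 to -0.71 in Pdgfrb-Cre without the cells that carried other markers. Leaving those cells out moved the proliferation median from 0.86 to -0.69 in Pdgfrb-Cre and the interferon median from -0.48 to -2.15 in Pdgfra-Cre. Each median moved less in the other comparison. Mki67 was detected in 11.6% of Pdgfra-Cre, 6.38% of Pdgfrb-Cre and 3.7% of wild-type NK cells, against 0.384% of Pdgfra-Cre, 2.78% of Pdgfrb-Cre and 5.74% of wild-type barcodes without NK or CD3 UMIs. After thinning to 1500 UMIs it was detected in 2.44% of Pdgfra-Cre, 4.35% of Pdgfrb-Cre and 4% of wild-type NK cells, so the order of the unthinned shares was not kept. Cytokine receptors had medians of 0.05 and -0.47, with Ifngr1, a chain of the interferon gamma receptor, at 783 CPM in Pdgfra-Cre, 776 CPM in Pdgfrb-Cre and 276 CPM in wild-type NK cells and Il2rb at 511 CPM in Pdgfra-Cre, 983 CPM in Pdgfrb-Cre and 407 CPM in wild-type NK cells. Homing genes had medians of 0.08 and 0.28, and immediate early genes 0.36 and 0.29. No checkpoint receptor reached 100 CPM, Pdcd1 (PD-1) had no UMI in any NK cell, and the 1 measured telomere gene, Nop10, stayed within 2-fold.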

How the data were processed

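Cells of the stromal and vascular fraction of inguinal fat were dissociated, freed of dead cells and red cells and loaded for 10x 3-prime version 3 libraries, per the labels' protocols. The authors deposited a matrix of raw UMI counts for each of 3 samples, made with Cell Ranger 3.1.0 per the file headers; the submitters' processing notes name STAR 2.6 and the build mm10. The strand setting and gene annotation of that step appear in no source used here, so overlapping genes may share reads.

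Kept barcodes had 500 or more genes and no more than 15% mitochondrial UMIs. UMIs of the NK cells were summed per library and given as CPM, with exact Poisson, Clopper-Pearson and conditional binomial intervals (scipy 1.17.1). Libraries held 13352288 to 30826733 UMIs. With 1 library a genotype no test between genotypes was run. NK and T cell sums were compared with edgeR 4.0.16 (TMM, filterByExpr, quasi-likelihood F test) with the library as block and Benjamini-Hochberg adjustment; the pairing is by sample, since both sums come from the same library. DESeq2 1.42.0 was an alternative. The scripts were tested on simulated data. The labels name no separate animals. With the block, p-values measure how far the difference between NK and T cells varied over these 3 libraries. That variation mixes genotype, mice and technical effects. No doublets were removed.

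Members and gene lists were chosen with earlier results of these data known, and some lists follow an earlier analysis of them. Besides list genes, those named were the 15 highest, the 10 highest and lowest ratios per genotype comparison and the 12 largest changes each way against T cells. Promoter windows are from RefSeq and gene positions from GENCODE M21. Leaving out the cells with other markers, and Gzma out of the rule, were alternatives added after seeing the data. Some genes that met these rules are not reported here.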

Additional observations from a re-analysis of the deposited data

Results flagged for a closer look

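Genes of the lists are given here when NK cells lay at least 2-fold above CD3 T cells in one library and at least 2-fold below them in another, with counting intervals that exclude equal levels. The 5 genes below met this, and in none was the difference between libraries tested, since each genotype has 1 library.

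Il7r had 45.3 CPM in NK cells and 529 CPM in T cells of Pdgfra-Cre (log2 ratio -3.28), 62.1 CPM in NK cells and 191 CPM in T cells of Pdgfrb-Cre (log2 ratio -1.48) and 511 CPM in NK cells and 178 CPM in T cells of wild type (log2 ratio 1.47). In wild type alone NK cells carried more Il7r than T cells. Rora had 65.9 CPM in NK cells and 275 CPM in T cells of Pdgfra-Cre (log2 ratio -1.91), 252 CPM in NK cells and 256 CPM in T cells of Pdgfrb-Cre (log2 ratio -0.0211) and 276 CPM in NK cells and 57.7 CPM in T cells of wild type (log2 ratio 2.08). Eomes had 33.0 CPM in NK cells and 129 CPM in T cells of Pdgfra-Cre (log2 ratio -1.70), 262 CPM in NK cells and 51.7 CPM in T cells of Pdgfrb-Cre (log2 ratio 2.14) and 235 CPM in NK cells and 35.6 CPM in T cells of wild type (log2 ratio 2.42). For Eomes NK cells lay below T cells in Pdgfra-Cre only.

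The stromal genes Dcn and Gsn also met it. Dcn had 2003 CPM in NK cells and 805 CPM in T cells of Pdgfra-Cre (log2 ratio 1.30), 1042 CPM in NK cells and 115 CPM in T cells of Pdgfrb-Cre (log2 ratio 3.07) and 0 CPM in NK cells and 113 CPM in T cells of wild type (log2 ratio -3.62). Gsn, the gene of gelsolin, had 94.8 CPM in NK cells and 751 CPM in T cells of Pdgfra-Cre (log2 ratio -2.86), 900.3 CPM in NK cells and 159 CPM in T cells of Pdgfrb-Cre (log2 ratio 2.43) and 55.2 CPM in NK cells and 120.4 CPM in T cells of wild type (log2 ratio -0.9993). For Dcn 1 NK cell held nearly all UMIs in each Cre library.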

How the results depend on the processing

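The NK share was highest in Pdgfra-Cre under every alternative run. With at least 3 markers it was 2.74%, 0.818% and 0.587% in Pdgfra-Cre, Pdgfrb-Cre and wild type, with CD3-positive barcodes taken too 6.04%, 3.37% and 1.91%, after thinning 2.87%, 0.812% and 1.021%, and with no UMI of Trac, Trbc1 or Trbc2 0.632%, 0.248% and 0%. The last left no wild-type cell, so genotype ratios under it could not be had. Genes at least 2-fold lower in Pdgfra-Cre numbered 90 with totals without mitochondrial and ribosomal protein genes. Size factors raised the median ratio in Pdgfrb-Cre by 0.13. With no minimum level, 1519 genes were higher and 898 lower in Pdgfra-Cre, and 1389 higher and 1188 lower in Pdgfrb-Cre. Against CD3 T cells, leaving out 1 library gave 133 to 278 higher and 150 to 199 lower genes, no replicate block 72 and 34, and no filter 468 lower. Against CD8 T cells the ranges were 127 to 385 higher and 147 to 273 lower, no replicate block gave 101 and 60, and no filter 565 lower. DESeq2 gave 203 higher and 154 lower against CD3 T cells. Of the genes whose calls are given, Gzmb, Serpinb9, Nkg7, Ccl4, Ccl5, Bhlhe40, Ccr7, Il18rap, Fam241a, Rplp0 and mt-Co3 missed the threshold without the block, besides the genes lost without a library. Some log2 ratios reversed. With at least 3 markers these were Cd160 in Pdgfra-Cre (0.23), Cd74 (-0.26 in Pdgfra-Cre, -0.94 in Pdgfrb-Cre), and H2-Aa (-0.35) and Gsn (-0.52) in Pdgfrb-Cre. Without the cells that carried other markers they were H2-Aa (-1.017 and -2.17), Cd74 (-1.97 and -2.27), and Gsn (-0.36) and Stmn1 (-0.71) in Pdgfrb-Cre. Against CD8 T cells Dcn (-2.67) and Egr1 (-0.24) reversed without those cells. By mean CPM per cell Cd74 was -0.44 in Pdgfrb-Cre. The cause of these changes was not tested. At 27 wild-type NK cells, 1 UMI is 6.9 CPM, which limits every low gene.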
